A study of Homo sapiens with 24 samples.

Results

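Secreted chemokines and inflammatory cytokines were followed in RT112 and SCaBER cells, 2 human bladder cancer lines, after siRNA against the transcription factors FOXA1 and ZBED2. The members are 10 of the 58721 genes in the count table, chosen by name: CXCL1, CXCL2, CXCL3, CXCL8, CXCL10, CXCL11, CCL20, IL6, IL1A and IL1B. RNA was measured by 3′ RNA-seq (Lexogen QuantSeq, forward kit), in which each read marks the 3′ end of a polyadenylated transcript. RT112 is a luminal papillary line grown in RPMI and SCaBER a basal/squamous line grown in DMEM, both with 10% FBS. All groups, controls included, were reverse transfected with siRNA in Lipofectamine RNAiMAX. Each line received siControl (the control siRNA with number 2), siZBED2-1 or siZBED2-2 (siRNAs with number 1 and number 2 against ZBED2), siFOXA1 (a single siRNA, with number 1), or siFOXA1 together with siZBED2-1 or with siZBED2-2. Each of these 12 groups held 2 libraries, 24 in all. No label names siFOXA1 together with a control siRNA, so the double knock-downs also differ from the other groups in the number of siRNAs. The replicate number stands in the labels as an experiment batch, and nothing there says that the 2 libraries came from separate cultures, so p-values measure the spread between these libraries, which may be technical.

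CXCL1, CXCL2, CXCL3 and CXCL8 are CXC chemokines that draw neutrophils through the receptors CXCR1 and CXCR2, and their genes answer to NF-kB and AP-1. CXCL10 and CXCL11 are ligands of CXCR3 on activated T cells and NK cells, and they are induced by interferons. CCL20 draws CCR6-bearing cells, IL6 signals through IL6R and gp130, and IL1A and IL1B are ligands of the receptor IL1R1 that in turn induce neutrophil chemokines in epithelial cells.

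The members lie in 4 places in the genome. CXCL8, CXCL1, CXCL3 and CXCL2 lie on chromosome 4 (73740569 to 73743716, 73869393 to 73871308, 74036589 to 74038689 and 74097040 to 74099195 of GRCh38.p14), with CXCL10 (76021118 to 76023497) and CXCL11 (76033682 to 76036070) further along the same chromosome. IL1A (112773925 to 112784493) and IL1B (112829751 to 112836779) are neighbours on chromosome 2, which also holds CCL20 (227813842 to 227817556). IL6 lies on chromosome 7 (22727200 to 22731998).

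The 250 bases before the annotated start are printed for the 2 chemokines that fell and the 2 that rose in SCaBER after siFOXA1, so that the letters before the start can be set beside the values. The sequences come from RefSeq on GRCh38.p14 and read 5′ to 3′ on the strand of the gene: chr4:73869143-73869392 (plus strand) for CXCL1, chr4:73740319-73740568 (plus) for CXCL8, chr4:76023498-76023747 (minus) for CXCL10 and chr4:76036071-76036320 (minus) for CXCL11. Capitals mark GGAANTTCC, an NF-kB-type core, and the interferon-stimulated response element (ISRE, here TTTC and TTTC with any 2 bases between), each searched on both strands.
CXCL1: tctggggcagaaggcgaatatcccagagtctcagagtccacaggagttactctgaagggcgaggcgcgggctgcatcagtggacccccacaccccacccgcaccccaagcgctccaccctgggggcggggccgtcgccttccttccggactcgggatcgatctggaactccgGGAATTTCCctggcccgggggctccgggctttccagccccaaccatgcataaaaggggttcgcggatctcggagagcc
CXCL8: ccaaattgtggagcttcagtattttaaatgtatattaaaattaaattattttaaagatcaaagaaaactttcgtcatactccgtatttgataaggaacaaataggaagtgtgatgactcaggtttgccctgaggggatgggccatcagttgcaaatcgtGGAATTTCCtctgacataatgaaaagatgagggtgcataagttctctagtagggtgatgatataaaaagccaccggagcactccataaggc
CXCL10: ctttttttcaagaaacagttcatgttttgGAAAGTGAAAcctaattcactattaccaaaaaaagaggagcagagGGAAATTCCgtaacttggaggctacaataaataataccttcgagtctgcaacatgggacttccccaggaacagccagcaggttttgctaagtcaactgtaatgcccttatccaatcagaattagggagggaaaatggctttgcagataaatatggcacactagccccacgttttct
CXCL11: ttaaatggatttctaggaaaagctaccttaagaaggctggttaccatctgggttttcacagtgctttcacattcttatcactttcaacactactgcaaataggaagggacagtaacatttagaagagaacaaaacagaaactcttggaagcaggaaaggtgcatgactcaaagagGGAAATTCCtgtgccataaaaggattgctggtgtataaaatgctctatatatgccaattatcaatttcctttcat

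All 4 windows held 1 match to GGAANTTCC, starting at base −78 before the start in CXCL1, −91 in CXCL8, −176 in CXCL10 and −75 in CXCL11. These include chemokines that fell and chemokines that rose, and nothing about the direction of the response is read from the core. CXCL2 and CXCL3 also held it, 6 of the 10 members in all, against 0.826% of 35116 promoter windows of the same length. Nothing is read from that count, because the pattern was added after these promoters had been seen. A looser NF-kB pattern, GGG and CC with any 5 bases between, whose matches overlap the core in 5 of those members, were found in 8 of 10 members and in 54.4% of all windows. The ISRE letters were found in 1 of 10 members, CXCL10 (base −221, overlapping matches to TTNNGNAA), and in 3.02% of all windows. TTNNGNAA, the letters of C/EBP factors, was found in 5 of 10 members and in 33.2% of all windows. TGANTCA, the letters of AP-1, was found before CXCL8 (−137), CXCL11 (−87) and IL1A (−12), and in 6.57% of all windows. TGTTTNC, the letters of forkhead factors such as FOXA1, was found before IL1A (−186) and IL1B (−246), and in 15.5% of all windows. These matches are letters in a window, not measured sites.

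**Figure D1:**
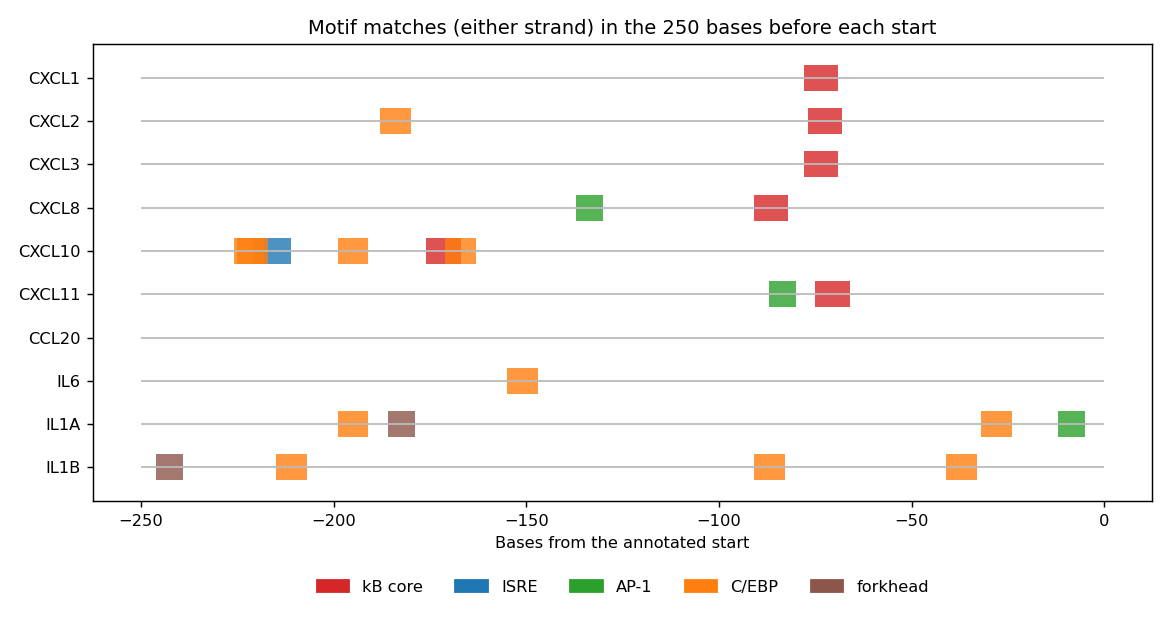
Position of motif matches in the 250 bases before the annotated start of each of the 10 genes. The x axis gives bases from the start, each grey line is a gene, and coloured blocks are matches on either strand to the core GGAANTTCC (kB core), the ISRE, TGANTCA (AP-1), TTNNGNAA (C/EBP) and TGTTTNC (forkhead). The core is present in 6 of 10 genes and the ISRE in CXCL10.

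Libraries of RT112 held 4425404 to 5207195 counts and those of SCaBER 4519668 to 6119210. A count of 0 allows up to 3 counts, which in CPM (counts scaled to a common library size) was 0.524 to 0.664 in RT112 and 0.474 to 0.678 in SCaBER. These limits cover counting error only. Among markers of the labelled lines under siControl, RT112 had 504 CPM of GATA3 and 102 of UPK2, against 12.1 and 3.48 in SCaBER. SCaBER had 973 CPM of KRT6A and 285 of KRT14, against 6.24 and 1.90 in RT112. Not every marker separated the lines in this way. The luminal markers KRT20 and UPK3A had 0 counts in both lines under siControl. The basal marker TP63 was at 25.2 CPM ± 13.8 in RT112 and 18.7 ± 0.271 in SCaBER (SD, n = 2). KRT5, also basal, was at 195 CPM in RT112 and 815 in SCaBER. The leukocyte genes PTPRC, LYZ, CD3E and CD79A reached at most 13 counts in any library. CD68, also on that list, had counts in every SCaBER library, at most 10, and at most 2 in RT112. In SCaBER the share of mitochondrial counts was 9.73% and 10.7% under siControl and 12.9% and 12.5% under siFOXA1, and in RT112 it was 17.8% and 12.2% against 21.4% and 22.7%. Its part in the results was not tested.

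The targeted genes check the labels. In RT112 FOXA1 had 192 and 225 counts under siControl and 34 and 44 under siFOXA1. In SCaBER FOXA1 was low throughout, with 20 and 28 counts under siControl, 4 and 6 under siFOXA1 and 0 to 3 in the double knock-downs. By edgeR's quasi-likelihood test its fall under siFOXA1 did not reach an adjusted p under 0.05. On a background of ZBED2 siRNA the log2 change of FOXA1 was −3.23 (adjusted p 0.0429). The SCaBER library of siZBED2-1 replicate 2, which received no FOXA1 siRNA, held 1 FOXA1 count, against 14 in replicate 1. ZBED2 had 101 and 96 counts in SCaBER under siControl, 12 and 40 under siZBED2-1, and 48 and 100 under siZBED2-2. Replicate 2 of siZBED2-2 thus held as many ZBED2 counts as the controls, and 15.8 CPM against 18.9 in both controls. In RT112 ZBED2 had 101 and 92 counts under siControl, 12 and 0 under siZBED2-1, 38 and 36 under siZBED2-2, and 27 and 7 under siFOXA1 alone.

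The first comparison asks how the lines differ in these genes before any knock-down. All 10 members were lower in RT112 than in SCaBER under siControl by edgeR's quasi-likelihood test (adjusted p under 0.05), where 17.2% of 14823 genes were lower in RT112 and 33.6% differed in either direction. Nothing is read from that count, because 5 of the 10 passed the filter on low counts only through SCaBER, which fixed their direction. All members together took 15 to 208 counts of an RT112 library and 2023 to 2780 of a SCaBER library. CXCL1, CXCL2, CXCL3, CCL20 and IL6 had 0 counts in all 12 RT112 libraries.

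Because a fold against 0 is a bound, SCaBER is set here against the mean floor of 3 counts per RT112 library under siControl. CXCL1 was at least 439-fold higher in SCaBER, at 265 CPM ± 6.08 (SD, n = 2). IL6 was at least 12.3-fold higher, CXCL2 at least 10.1-fold, CXCL3 at least 6.95-fold, CCL20 at least 5.09-fold and CXCL10 at least 5.01-fold. The call of CCL20 was lost without RT112 siControl replicate 1 (adjusted p 0.0904) or replicate 2 (0.106). The bound of CXCL10 was 8.15-fold without SCaBER siControl replicate 1 and 1.86-fold without replicate 2.

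IL1A was at 1.39 CPM ± 0.115 in RT112, against 24.7 ± 3.44 in SCaBER (SD, n = 2), a log2 change of −4.12 (SE 0.36, adjusted p 4.37e-11). IL1B stood at 1.31 ± 0.299 and 32.4 ± 2.75, a log2 change of −4.61 (SE 0.37, adjusted p 3.33e-12). CXCL8 had 10 and 0 counts in RT112 and 183 and 211 in SCaBER (log2 change −5.18, SE 0.67), a value that was −10.58 without RT112 siControl replicate 1 and −4.10 without replicate 2. CXCL11 had 0 and 1 counts in RT112 and 176 and 172 in SCaBER (−8.07, SE 0.79), with −7.32 and −10.39 without RT112 siControl replicates 1 and 2. In these bulk samples fewer cells expressing a gene and less RNA per cell cannot be told apart.

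The second comparison asks what siFOXA1 did to the members in SCaBER. CXCR3 ligands rose, neutrophil chemokines fell or did not pass, and IL1A rose. By edgeR's quasi-likelihood test 5 of 10 members passed, 3 higher and 2 lower, where 17.8% of 13129 genes passed (8.71% higher and 9.12% lower). The same 5 members passed with each other setting run, and in all 12 fits that left out a library.

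CXCL1, the most counted member in SCaBER, had 1393 and 1367 counts under siControl and 666 and 653 under siFOXA1. Both siFOXA1 libraries lay below both controls. Its level fell from 265 CPM ± 6.08 to 142 ± 8.09 (SD, n = 2), a log2 change of −0.92 (SE 0.14, adjusted p 8.69e-06). CXCL8, or interleukin 8, had 183 and 211 counts under siControl and 60 and 76 under siFOXA1, again without overlap. It fell from 37.8 CPM ± 5.17 to 14.7 ± 3.47, a log2 change of −1.38 (SE 0.31, adjusted p 0.00134).

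CXCL2 and CXCL3 are close relatives of CXCL1 and were read far less often. CXCL2 had 27 and 36 counts under siControl and 14 and 23 under siFOXA1, and CXCL3 had 28 and 16 against 40 and 17. In CPM the libraries of both genes overlapped between the groups, and neither gene passed. In the last 600 bases of their longest coding transcripts, 46 of 551 windows of 50 bases (8.35%) in CXCL1 also occur in CXCL2 or CXCL3. The same number was shared in CXCL2 and 0 in CXCL3. Whether this moved reads between these genes was not tested.

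CXCL10 had 6 and 25 counts under siControl and 154 and 346 under siFOXA1. The groups were far apart, and the siFOXA1 libraries differed from each other as well. Its level rose from 3.02 CPM ± 2.68 to 54.8 ± 33 (SD, n = 2), a log2 change of 4.17 (SE 0.52, adjusted p 2.72e-07). The size rested on single libraries: it was 3.45 without siControl replicate 1, 5.57 without siControl replicate 2 and 3.36 without siFOXA1 replicate 2, and it passed in each case. CXCL11 had 176 and 172 counts under siControl and 890 and 1204 under siFOXA1. It rose from 33.3 CPM ± 0.668 to 227 ± 63.8, a log2 change of 2.75 (SE 0.21, adjusted p 1.15e-11), and stayed between 2.42 and 3.02 when any 1 library was left out.

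IL1A had 145 and 113 counts under siControl and 248 and 186 under siFOXA1. It rose from 24.7 CPM ± 3.44 to 46.4 ± 6.12 (SD, n = 2), a log2 change of 0.89 (SE 0.21, adjusted p 0.00176). Its neighbour IL1B had 184 and 155 counts against 232 and 202, without overlap, and a log2 change of 0.50 (SE 0.20) that did not pass (adjusted p 0.0766). IL6 had 33 and 44 counts against 28 and 32, and CCL20 had 16 and 16 against 10 and 28. Neither IL6 nor CCL20 passed.

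CXCL2, CXCL3, CCL20 and IL6 stayed low in all 12 SCaBER libraries. Counts ranged from 13 to 52 for CXCL2 (median 24.5), from 11 to 40 for CXCL3 (19), from 4 to 38 for CCL20 (10) and from 18 to 59 for IL6 (30.5). In the 8 comparisons within SCaBER each of these 4 genes was called in 0 of 144 fits by edgeR, DESeq2 or limma, and edgeR with all libraries gave 0 unadjusted p under 0.05 for them. At these counts a change of moderate size was not detectable.

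**Figure D2:**
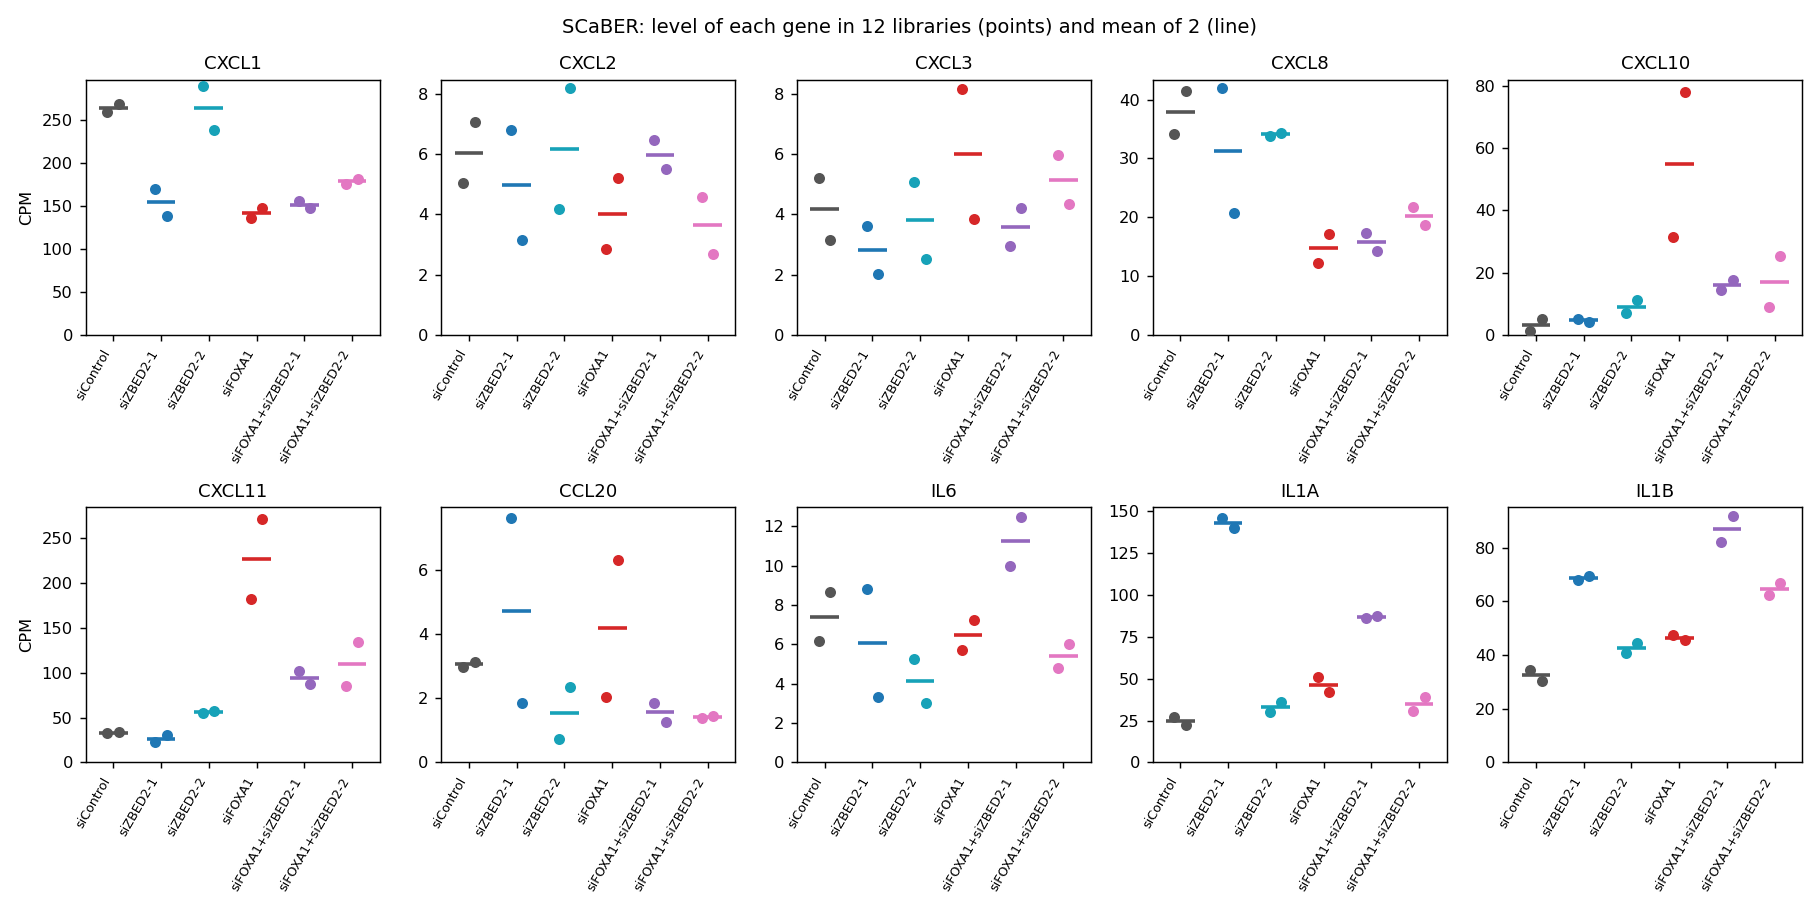
Level of each gene in the 12 SCaBER libraries. The y axis of each panel is CPM from 0, each point is a library, coloured by treatment, and each line is the mean of 2. CXCL10 and CXCL11 are highest in the siFOXA1 libraries (31.5 and 78.2 CPM, and 182 and 272 CPM), CXCL8 is between 12.3 and 21.7 CPM in the libraries with the FOXA1 siRNA, and IL1A is highest with siZBED2-1 (146 and 140 CPM).

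The third comparison asks whether the FOXA1 siRNA acted alike on a background of ZBED2 siRNA. It set the 4 double knock-down libraries against the 4 libraries with a ZBED2 siRNA alone, which shares no library with siFOXA1 against siControl. By edgeR 4 of 10 SCaBER members passed, 3 higher and 1 lower, where 10.1% of 13129 genes passed (5.24% higher and 4.90% lower).

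CXCL8 had 209, 112, 186 and 218 counts with a ZBED2 siRNA alone and 94, 67, 109 and 90 with siFOXA1 added. In CPM the groups overlapped by 1 library each, at 20.7 for siZBED2-1 replicate 2 and 21.7 for siFOXA1+siZBED2-2 replicate 1, and the log2 change was −0.87 (SE 0.22, adjusted p 0.00672). It was −0.58 without siZBED2-1 replicate 1, which did not pass (adjusted p 0.133). Without siZBED2-1 replicate 2, the library with 1 FOXA1 count, it was −1.09 (adjusted p 0.000783).

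CXCL11 had 111, 166, 304 and 363 counts with a ZBED2 siRNA alone and 549, 413, 430 and 648 with siFOXA1 added. All 4 double knock-down libraries lay above all 4 others, with a log2 change of 1.40 (SE 0.15, adjusted p 1.83e-08). CXCL10 had 26, 23, 38 and 70 counts against 78, 84, 45 and 122, which overlapped in 1 library of each side. Its log2 change was 1.34 (SE 0.34, adjusted p 0.00769), and 0.87 without siFOXA1+siZBED2-2 replicate 2 (adjusted p 0.104). With DESeq2 CXCL10 did not pass (adjusted p 0.102).

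IL1B had 340, 376, 224 and 283 counts against 445, 435, 313 and 323 (log2 change 0.47, SE 0.13, adjusted p 0.0193), and 5 of the 12 fits that left out a library did not pass, with adjusted p up to 0.105. These were without siZBED2-1 replicate 1 (0.0739) or 2 (0.0701), siZBED2-2 replicate 1 (0.0832), siFOXA1+siZBED2-1 replicate 2 (0.105) and siFOXA1+siZBED2-2 replicate 2 (0.0904). CXCL1 was lower by a smaller amount that did not pass, −0.29 (SE 0.10, adjusted p 0.0536), and passed with the replicate number as a block (adjusted p 0.0275), with DESeq2 (0.0337) and in 6 of the 12 fits that left out a library. These were without siControl replicate 1 (0.0464) or 2 (0.0465), siFOXA1 replicate 1 (0.0324) or 2 (0.0323), siZBED2-1 replicate 2 (0.0304) or siZBED2-2 replicate 2 (0.027). IL1A gave −0.32 (SE 0.14, adjusted p 0.143). For CXCL1 and IL1A the siZBED2-1 and siZBED2-2 backgrounds were unlike, with levels given below.

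The difference between the 2 responses was tested as an interaction, the FOXA1 siRNA response on ZBED2 siRNA minus that on siControl. In SCaBER 4 of 10 members passed by edgeR, where 2.29% of 13129 genes passed. CXCL10 differed by −2.82 (SE 0.61, adjusted p 0.00726) and CXCL11 by −1.35 (SE 0.25, adjusted p 0.0017), so the rise of both CXCR3 ligands was smaller with a ZBED2 siRNA present. For CXCL10 it was −2.12 without siControl replicate 1 (adjusted p 0.051), −4.24 without siControl replicate 2 (adjusted p 0.0002) and −2.03 without siFOXA1 replicate 2 (adjusted p 0.103). IL1A differed by −1.22 (SE 0.25, adjusted p 0.00404), from 0.89 on siControl to −0.32 on ZBED2 siRNA. The latter is a mean over unlike backgrounds. With siFOXA1 added IL1A went from 143 to 86.7 CPM on siZBED2-1 and from 33 to 34.8 on siZBED2-2. CXCL1 went from 154 to 152 CPM on siZBED2-1 and from 265 to 179 on siZBED2-2. Whether these backgrounds differed in the response was not tested. In the interaction, an added siRNA of any kind cannot be told apart from loss of ZBED2. CXCL1 differed by 0.62 (SE 0.17, adjusted p 0.0434), and lost its call in 9 of the 12 fits that left out a library, with values of 0.54 to 0.69 and adjusted p up to 0.159. On the log2(TPM + 1) scale with limma none of the 4 passed, with CXCL10 at −2.78 and IL1A at −1.10.

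**Figure D3:**
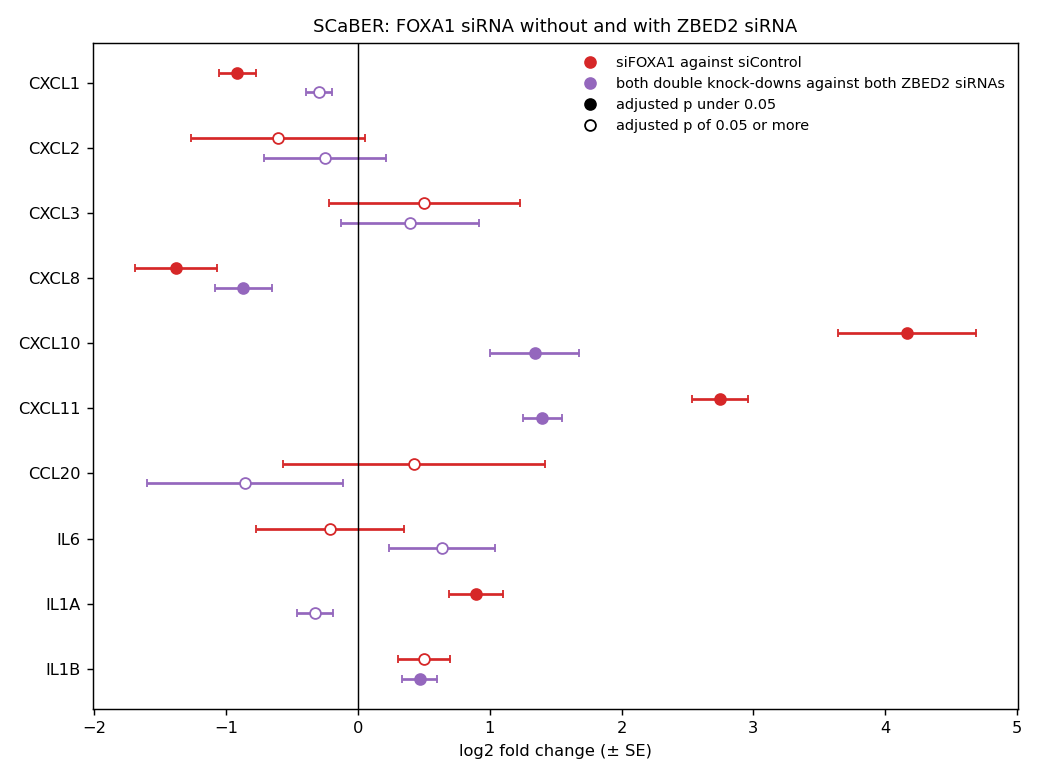
Response of the 10 members to the FOXA1 siRNA in SCaBER. The x axis is the log2 fold change from edgeR with its standard error; red gives siFOXA1 against siControl and purple the double knock-downs against the ZBED2 siRNAs alone, and filled points have an adjusted p under 0.05. CXCL10 is at 4.17 and 1.34 and CXCL11 at 2.75 and 1.40, while CXCL8 is at −1.38 and −0.87.

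The fourth comparison asks what each ZBED2 siRNA did in SCaBER. With siZBED2-1 both interleukin 1 genes rose and CXCL1 fell, so 3 of 10 members passed by edgeR, where 4.65% of 13129 genes passed. The controls are the siControl libraries already used for siFOXA1. IL1A had 145 and 113 counts under siControl and 728 and 759 under siZBED2-1. It rose from 24.7 CPM ± 3.44 to 143 ± 4.26 (SD, n = 2), a log2 change of 2.51 (SE 0.20, adjusted p 2.52e-10). IL1B had 184 and 155 counts against 340 and 376, with a log2 change of 1.06 (SE 0.19, adjusted p 5.19e-04). CXCL1 had 1393 and 1367 counts against 849 and 752, with a log2 change of −0.80 (SE 0.14, adjusted p 2.71e-04). Without siZBED2-1 replicate 2 the values were 2.55 for IL1A, 1.06 for IL1B and −0.65 for CXCL1, and all 3 passed.

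With siZBED2-2 0 of 10 members passed by edgeR, where 0.625% of 13129 genes passed. At an unadjusted p under 0.05 edgeR gave 4 members, DESeq2 2 and limma on log2(TPM + 1) 3, and the latter tools also called 0. CXCL11 had 304 and 363 counts against 176 and 172 under siControl (log2 change 0.76, SE 0.21, adjusted p 0.129), and CXCL10 had 38 and 70 against 6 and 25 (1.59, SE 0.53, adjusted p 0.28). Both libraries of siZBED2-2 were higher than both controls in these genes. With the replicate number as a block both passed, CXCL10 at 1.66 (adjusted p 0.0486) and CXCL11 at 0.76 (adjusted p 0.024). Without siZBED2-2 replicate 2, the library with 100 ZBED2 counts, the values were 1.22 (adjusted p 0.728) and 0.74 (adjusted p 0.269). CXCL10 was at 3.00 without siControl replicate 2, which passed (adjusted p 0.0249), and 0.88 without siControl replicate 1. CXCL11 passed without siFOXA1 replicate 1 (adjusted p 0.0284) or 2 (0.0375), or without siFOXA1+siZBED2-2 replicate 1 (0.0327) or 2 (0.0337), libraries outside the contrast that set its spread.

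The ZBED2 siRNAs were compared directly, 4 libraries with siZBED2-1 against 4 with siZBED2-2, each with and without siFOXA1. This comparison was added after the data had been seen. By edgeR 4 of 10 members passed, where 5.80% of 13129 genes passed. IL1A had 728, 759, 466 and 412 counts with siZBED2-1 and 165, 228, 155 and 187 with siZBED2-2, and the sets did not overlap. The log2 difference was 1.69 (adjusted p 1.92e-10). IL1B was higher with siZBED2-1 by 0.54 (adjusted p 0.00972), a call lost without siFOXA1+siZBED2-2 replicate 1 (adjusted p 0.0514) or siFOXA1+siZBED2-1 replicate 2 (0.0739). CXCL1 was lower by −0.53 (adjusted p 4.76e-04) and CXCL11 by −0.67 (adjusted p 0.00266). The levels of IL1A, CXCL1 and CXCL11 thus differed between the siRNAs against the same gene. For CXCL11 they were 26.4 CPM with siZBED2-1 and 56.3 with siZBED2-2. With siFOXA1 they were 94.5 and 110, where the libraries overlapped. ZBED2 itself was left at 4.89 CPM with siZBED2-1 and 12.3 with siZBED2-2, without siFOXA1. The part of this in the differences was not tested.

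Both CXCR3 ligands were lower in SCaBER with a ZBED2 siRNA added to siFOXA1. Without a group of siFOXA1 and a control siRNA, loss of ZBED2 and an added siRNA of any kind cannot be told apart. With siZBED2-1 added, 4 of 10 members passed by edgeR, where 2.73% of 13129 genes passed. CXCL11 had 890 and 1204 counts under siFOXA1 and 549 and 413 with siZBED2-1 added (log2 change −1.27, SE 0.20, adjusted p 1.06e-04). CXCL10 had 154 and 346 counts against 78 and 84 (−1.77, SE 0.44, adjusted p 0.0189). IL1A had 248 and 186 counts against 466 and 412 (0.90, SE 0.19, adjusted p 0.00546), and IL1B had 232 and 202 against 445 and 435 (0.90, SE 0.19, adjusted p 0.00427).

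With siZBED2-2 added, 2 of 10 members passed, where 3.66% passed over all genes. CXCL11 had 430 and 648 counts (log2 change −1.03, SE 0.20, adjusted p 0.00109) and CXCL10 had 45 and 122 (−1.66, SE 0.44, adjusted p 0.0253). IL1A and IL1B had 155 and 187, and 313 and 323 counts, and neither passed. CXCL1 did not pass with either siRNA added.

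These contrasts share the siFOXA1 libraries and rest on replicate 2 of that group. Without it CXCL10 was at −0.97 (adjusted p 0.563) with siZBED2-1 added and −0.86 (adjusted p 0.629) with siZBED2-2 added. CXCL11 was at −0.94 with siZBED2-1 added, which still passed, and at −0.70 (adjusted p 0.096) with siZBED2-2 added. IL1A was then at 0.77 (adjusted p 0.108) and IL1B at 0.88 (adjusted p 0.052) with siZBED2-1 added. Calls were also lost without siFOXA1+siZBED2-1 replicate 2 (CXCL10 0.0716, IL1A 0.0619, IL1B 0.112 as adjusted p), without siFOXA1+siZBED2-1 replicate 1 (CXCL10 0.115) and without siFOXA1+siZBED2-2 replicate 1 (CXCL10 0.302, CXCL11 0.0678). Without siFOXA1+siZBED2-2 replicate 2 CXCL10 was at −2.59 (adjusted p 0.00101) with siZBED2-2 added. With DESeq2 CXCL10 did not pass in either contrast (adjusted p 0.192 and 0.2).

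Across the 6 SCaBER groups the order of mean levels was as follows. CXCL11 ran from siFOXA1 (227 CPM) over siFOXA1+siZBED2-2 (110), siFOXA1+siZBED2-1 (94.5), siZBED2-2 (56.3) and siControl (33.3) to siZBED2-1 (26.4), and the libraries of the double knock-downs overlapped. CXCL1 ran from siZBED2-2 (265 CPM) and siControl (265), which overlapped, over siFOXA1+siZBED2-2 (179), siZBED2-1 (154) and siFOXA1+siZBED2-1 (152), which overlapped, to siFOXA1 (142). IL1A ran from siZBED2-1 (143 CPM) over siFOXA1+siZBED2-1 (86.7), siFOXA1 (46.4), siFOXA1+siZBED2-2 (34.8) and siZBED2-2 (33), which overlapped, to siControl (24.7). IL1B was lowest under siControl (32.4 CPM) and highest with siFOXA1+siZBED2-1 (87.2).

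**Figure D4:**
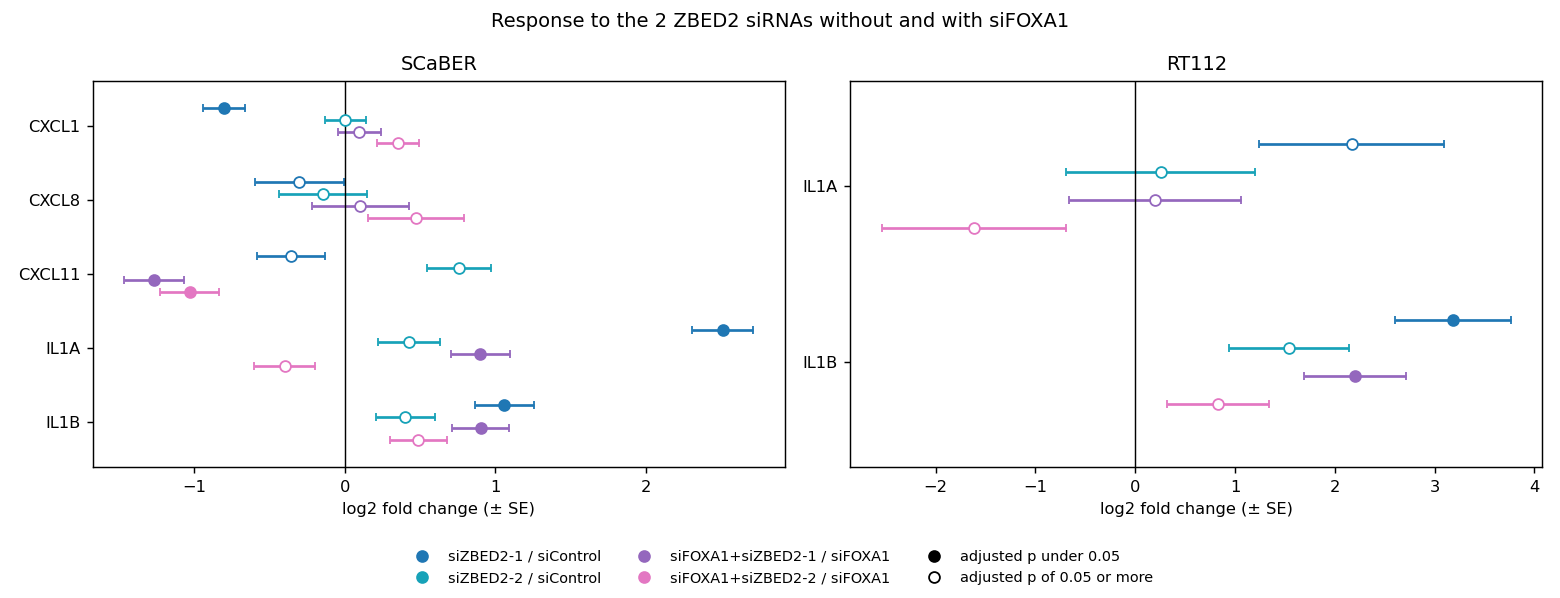
Response to each ZBED2 siRNA in SCaBER (left) and RT112 (right). The x axis is the log2 fold change from edgeR with its standard error, against siControl or, for the double knock-downs, against siFOXA1, and filled points have an adjusted p under 0.05. IL1A in SCaBER is at 2.51 with siZBED2-1 and 0.42 with siZBED2-2, and IL1B in RT112 at 3.18 and 1.54.

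In RT112 5 members had enough counts to be tested: CXCL8, CXCL10, CXCL11, IL1A and IL1B. All 5 had few counts, between 0 and 146 per library. After siFOXA1 1 of the 5 tested members passed by edgeR, where 23.3% of 13264 genes passed. IL1B had 7 and 6 counts under siControl and 31 and 19 under siFOXA1, a rise from 1.31 CPM ± 0.299 to 5.19 ± 1.5 (SD, n = 2). The log2 change was 1.96 (SE 0.60, adjusted p 0.0174). The call was lost without siControl replicate 1 (adjusted p 0.0563), siControl replicate 2 (0.153) or siFOXA1 replicate 1 (0.11), and with limma on log2(TPM + 1) (0.0679).

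CXCL10 had 0 counts in both RT112 siControl libraries and 21 and 7 under siFOXA1, at least 4.78-fold higher against the floor of 3 counts per library, and at least 2.52-fold higher without siFOXA1 replicate 1. It did not pass by edgeR (adjusted p 0.0685) and passed with DESeq2 (adjusted p 0.023). CXCL11 had 0 and 1 counts under siControl and 27 and 13 under siFOXA1 (log2 change 5.07, SE 2.24, adjusted p 0.108), and the value was 4.31 and 7.34 without siControl replicates 1 and 2. IL1A had 6 and 8 counts against 23 and 25 (1.82, SE 0.93, adjusted p 0.168). In CXCL10, CXCL11 and IL1A both siFOXA1 libraries lay above both controls. CXCL8 had 10 and 0 counts against 9 and 18, which overlapped. With limma on log2(TPM + 1) 3 of the tested members passed after siFOXA1, IL1B not among them.

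With siZBED2-1 1 of the 5 RT112 members passed by edgeR, where 8.80% of genes passed. IL1B had 65 and 51 counts against 7 and 6 under siControl, a rise to 12.1 CPM ± 1.11 (SD, n = 2) and a log2 change of 3.18 (SE 0.58, adjusted p 6.21e-04). IL1A had 33 and 28 counts against 6 and 8 (2.17, SE 0.93, adjusted p 0.164). CXCL8 had 33 and 24 against 10 and 0 (2.44, SE 1.30, adjusted p 0.296), with 7.88 and 1.41 without siControl replicates 1 and 2. With siZBED2-2 0 members passed by edgeR, DESeq2 or limma, where 0.166% of genes passed by edgeR. IL1B, at 21 and 21 counts, was then the 1 member at an unadjusted p under 0.05 by edgeR (1.54, SE 0.60, adjusted p 0.703). The libraries of RT112 siZBED2-2 differed more from each other than those of any other group, by a chi-square per gene of 23.9. The next highest was 11.6, in RT112 siControl. Mitochondrial counts made up 16.4% and 8.22% of the siZBED2-2 libraries. The part of this spread in the few calls was not tested.

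With siZBED2-1 added to siFOXA1, IL1B in RT112 rose from 31 and 19 to 86 and 146 counts, a log2 change of 2.20 (SE 0.51, adjusted p 0.0161). It was the 1 of 5 members that passed, where 2.55% of genes passed. The call was lost without siFOXA1 replicate 2 (1.93, adjusted p 0.159) or siFOXA1+siZBED2-1 replicate 2 (1.82, adjusted p 0.258), and with limma on log2(TPM + 1) (1.90, adjusted p 0.0762). With siZBED2-2 added IL1B had 36 and 50 counts, and 0 members passed by edgeR, DESeq2 or limma, with 0 at an unadjusted p under 0.05 by edgeR, 1 by DESeq2 and 2 by limma, where 1.25% of genes passed by edgeR.

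The FOXA1 siRNA on a background of ZBED2 siRNA also raised IL1B in RT112, from 65, 51, 21 and 21 counts to 86, 146, 36 and 50. The log2 change was 1.12 (SE 0.35, adjusted p 0.025), 1 of 5 members passed and 20.1% of genes passed. Within each ZBED2 siRNA both double knock-down libraries lay above both others. The call was lost without siZBED2-1 replicate 1 (adjusted p 0.0645), siZBED2-1 replicate 2 (0.0877), siZBED2-2 replicate 2 (0.072), siFOXA1+siZBED2-1 replicate 2 (0.167) or siFOXA1+siZBED2-2 replicate 2 (0.0952), and with limma on log2(TPM + 1) (0.0758). For the interaction 0 members passed by edgeR, DESeq2 or limma, with 0 at an unadjusted p under 0.05 by edgeR, 0 by DESeq2 and 1 by limma, where 0.611% of genes passed by edgeR.

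Set directly against each other, the siZBED2-1 libraries of RT112 had more IL1B than the siZBED2-2 libraries, by 1.51 on the log2 scale (SE 0.35, adjusted p 0.00581). It was the 1 of 5 members that passed, where 10.6% of genes passed. This comparison was also added after the data had been seen, and the call was lost without siFOXA1+siZBED2-1 replicate 2 (adjusted p 0.0575). CXCL8 had 33, 24, 14 and 35 counts with siZBED2-1 and 2, 3, 2 and 11 with siZBED2-2, sets that did not overlap (2.74, SE 0.94, adjusted p 0.0641). IL1A had 33, 28, 32 and 23 counts against 12, 6, 7 and 8 (1.86, SE 0.65, adjusted p 0.066). DESeq2 called CXCL8 and IL1A as well, at adjusted p of 0.0151 and 0.0139. The call of CXCL8 was gained without siControl replicate 1 (adjusted p 0.0385) or 2 (0.0309), siFOXA1 replicate 1 (0.0375) or 2 (0.0482), siFOXA1+siZBED2-1 replicate 1 (0.0444) or siFOXA1+siZBED2-2 replicate 2 (3.54, adjusted p 0.0499).

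**Figure D5:**
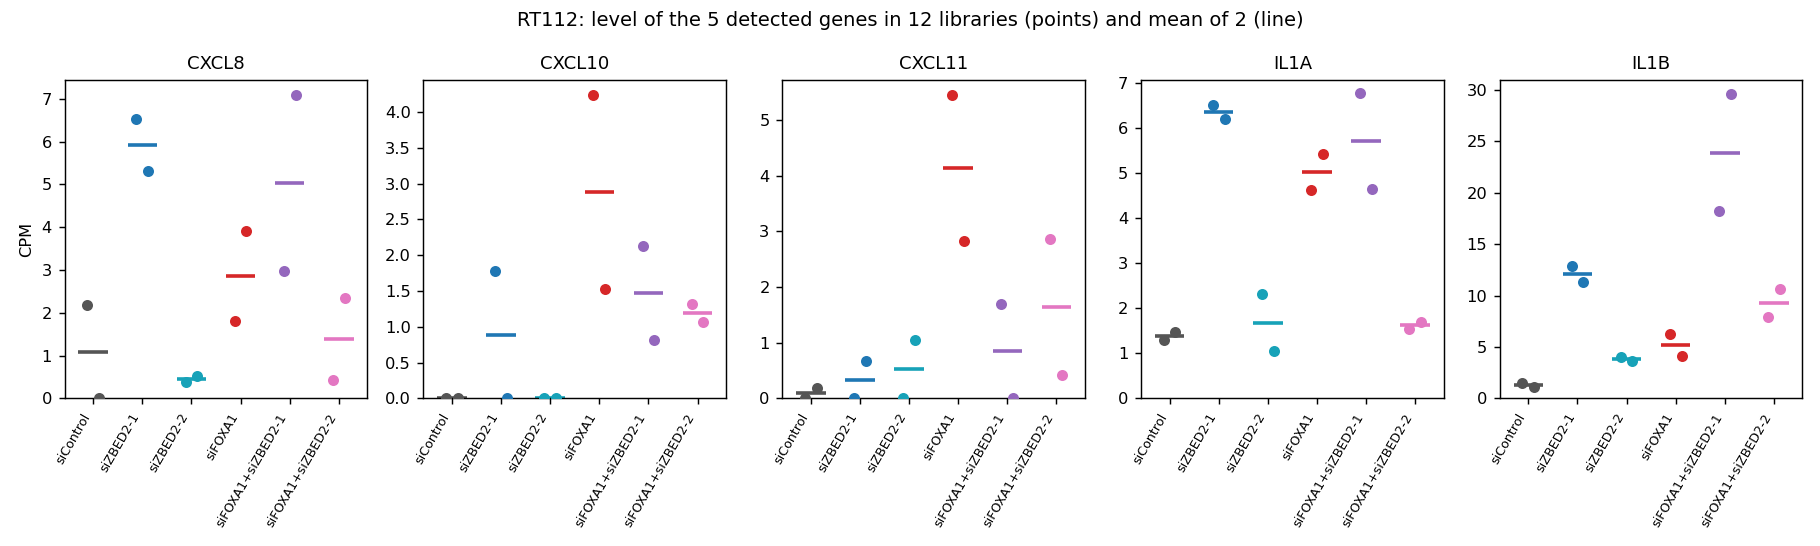
Level of the 5 members detected in the 12 RT112 libraries. The y axis of each panel is CPM from 0, each point is a library, coloured by treatment, and each line is the mean of 2. IL1B runs from 1.10 and 1.53 CPM under siControl to 18.3 and 29.6 with siFOXA1+siZBED2-1, and CXCL10 is at 0 in both siControl libraries.

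Whether the response to siFOXA1 differed between the lines was tested in a fit of all 24 libraries. By edgeR 0 of the 5 members with a value passed, where 2.58% of 14823 genes passed, and 2 had an unadjusted p under 0.05. For CXCL8 the response in RT112 minus that in SCaBER was 2.82 (SE 0.91, adjusted p 0.0964), and 8.22 without RT112 siControl replicate 1 (adjusted p 0.00287), 1.74 without RT112 siControl replicate 2, 2.18 without RT112 siFOXA1 replicate 2, and 3.28 without RT112 siFOXA1 replicate 1 (adjusted p 0.0373). DESeq2 called CXCL8 (adjusted p 0.0135) and limma called CXCL1, which has no value by edgeR. For IL1B the difference was 1.46 (SE 0.50, adjusted p 0.122), for IL1A 0.92 (SE 0.50), for CXCL10 2.70 (SE 2.1) and for CXCL11 2.31 (SE 1.40). Leaving out a library gave 1.30 (SCaBER siControl replicate 2) to 3.50 (SCaBER siFOXA1 replicate 2) for CXCL10 and 1.56 to 4.63 (RT112 siControl replicates 1 and 2) for CXCL11, and on log2(TPM + 1) both turned direction, to −1.66 and −0.48. Since CXCL1 had 0 counts in RT112, its response there could not be measured.

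Other genes of the pathways were taken from lists of receptors, ligands and regulators. In SCaBER after siFOXA1 the median log2 change over all genes was −0.02, and 17.8% of genes passed (8.71% higher and 9.12% lower). Of the receptors and antagonists 3 of 11 tested passed, 2 higher and 1 lower (list median 0.43). IL6R, the IL6-binding receptor chain, rose from 18.4 CPM ± 1.21 to 66.7 ± 5.75 (log2 change 1.84, SE 0.22, adjusted p 1.75e-07). IL6ST, the signalling chain gp130, rose by 0.43 (SE 0.14, adjusted p 0.0317), and IL1R1, the receptor of both interleukin 1 ligands, changed by −1.37 (SE 0.44, adjusted p 0.0257). Of 5 other chemokines tested 0 passed by edgeR, and 0 had an unadjusted p under 0.05 (list median −0.70).

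Of 12 other cytokines tested in SCaBER 6 were higher and 0 lower after siFOXA1 (list median 1.11). IL24, a cytokine of the IL-10 family, rose from 2.70 CPM ± 0.911 to 67.7 ± 28 (log2 change 4.62, SE 0.44, adjusted p 1.07e-09). IL23A, a chain of interleukin 23, rose by 2.61 (SE 0.37) and TNFSF10, the death ligand TRAIL, by 1.48 (SE 0.19). Of 19 transcription factors 8 were higher and 1 lower (list median 0.25). STAT2, a factor of the interferon signal, rose by 2.71 (SE 0.22), and ATF3, a stress-induced factor, by 1.97 (SE 0.31).

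Of 12 feedback inhibitors 4 were higher and 1 lower in SCaBER (list median 0.54). USP18, which restrains interferon signalling, rose by 3.32 (SE 0.31), CYLD, an NF-kB deubiquitinase, by 1.20 (SE 0.21) and SOCS3 by 1.10 (SE 0.26). Of 13 genes of IL-1 processing and the inflammasome 4 were higher and 1 lower (list median 0.03), among them CASP4 (1.49, SE 0.18), AIM2 (1.26, SE 0.18) and CASP8 (0.81, SE 0.22). Of 10 regulators of cytokine mRNA decay, which promote or oppose it, 0 were higher and 2 lower (list median −0.06). The lower ones were ELAVL1 at −0.77 (SE 0.17) and KHSRP at −0.33 (SE 0.12).

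In RT112 after siFOXA1, where the median over all genes was −0.01 and 23.3% of genes passed, the other chemokines that passed were CCL22 and CXCL16, 2 of 5 tested and both higher (list median 2.17). CCL22, a ligand of CCR4, rose from 0.184 CPM ± 0.260 to 16.3 ± 3.96 (log2 change 6.19, SE 0.99, adjusted p 5.05e-05). CXCL16 rose by 1.04 (SE 0.32). Of 8 other cytokines 0 passed by edgeR, and 1 had an unadjusted p under 0.05 (list median 1.85). Of 8 receptors and antagonists 1 was higher and 1 lower (list median 0.17): IL6R rose by 2.97 (SE 0.70), and ACKR3, a scavenging receptor for CXCL11 and CXCL12, changed by −1.18 (SE 0.22).

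Of 18 transcription factors in RT112 9 were higher and 1 lower (list median 0.56). RELB and NFKB2, the pair of the non-canonical NF-kB pathway, rose by 3.59 (SE 0.69) and 1.70 (SE 0.32), and STAT2 by 2.03 (SE 0.31). Of 12 feedback inhibitors 3 were higher and 1 lower (list median 0.73), with CYLD at 1.53 (SE 0.30), NFKBIA at 0.70 (SE 0.14) and TNIP1 at −0.94 (SE 0.20). Of 12 genes of IL-1 processing 1 was higher, CASP4 at 0.84 (SE 0.18), and 1 lower, PYCARD at −1.08 (SE 0.37). Of 11 regulators of cytokine mRNA decay, which promote or oppose it, 3 were lower: ZFP36L2 at −0.70 (SE 0.14), ZFP36L1 at −0.50 (SE 0.13) and ELAVL1 at −0.56 (SE 0.19).

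The lists were also counted with the FOXA1 siRNA on a background of ZBED2 siRNA, in libraries not used for siFOXA1 against siControl. Over all genes 10.1% passed in SCaBER and 20.1% in RT112. In SCaBER 4 of 12 other cytokines were higher, among them IL11 (3.09, SE 0.36), IL24 (1.54, SE 0.28) and IL23A (1.25, SE 0.24). Of 19 transcription factors 6 were higher and 1 lower, with JUN at 0.80 (SE 0.12) and STAT2 at 0.75 (SE 0.14). Of 12 feedback inhibitors 2 were higher and 1 lower, with USP18 at 2.19 (SE 0.21), CYLD at 0.54 (SE 0.15) and BCL3 at −0.61 (SE 0.15). IL6R was the 1 of 11 receptors and antagonists that passed, at 0.59 (SE 0.15), and CCL28 the 1 of 5 other chemokines, at −1.64 (SE 0.53). In RT112 8 of 18 transcription factors were higher and 2 lower, with JUN at 0.73 (SE 0.10) and NFKBIZ at −1.14 (SE 0.18), and CCL22 was higher by 2.24 (SE 0.54).

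With siZBED2-1 4.65% of all genes passed in SCaBER and 8.80% in RT112, and with siZBED2-2 0.625% and 0.166%. With siZBED2-1 in SCaBER 2 of 19 transcription factors, 2 of 12 feedback inhibitors, 2 of 13 genes of IL-1 processing and 1 of 11 receptors and antagonists were higher, and 2 of 12 other cytokines were higher and 2 lower. In RT112 4 of 18 transcription factors were higher with siZBED2-1, and 3 of 8 receptors and antagonists were higher and 1 lower. With siZBED2-2 1 transcription factor in SCaBER was higher, and each of the other 6 lists in SCaBER and all 7 in RT112 had 0 calls by edgeR, with 0 to 3 genes of a list at an unadjusted p under 0.05.

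Markers of cell state also moved in RT112 after siFOXA1, where 23.3% of 13264 genes passed. GATA3 changed by −0.89 (SE 0.14) and PPARG by −1.10 (SE 0.20), and 4 of 6 luminal markers tested were lower and 1 higher, the targeted FOXA1 among them. Of 6 basal or squamous markers tested 2 were higher, EGFR at 1.01 (SE 0.16) and CD44 at 0.61 (SE 0.16), and 1 lower, TP63 at −1.89 (SE 0.48). With siZBED2-1 3 of 6 luminal markers in RT112 were higher and 0 lower, where 8.80% of genes passed. After siFOXA1 2 of 9 markers of other cells could be tested in RT112: COL1A1 rose from 4.71 CPM ± 0.427 to 41.3 ± 1.87, and PECAM1 had 0 counts in both siFOXA1 libraries. In SCaBER after siFOXA1, where 17.8% of 13129 genes passed, KRT5 was the basal marker that passed, at −0.46 (SE 0.11). There 0 of 5 luminal markers tested passed by edgeR, with 1 at an unadjusted p under 0.05. The targeted FOXA1 was among those that did not pass. The 1 marker of other cells that could be tested did not pass. The part of these genes in the results was not tested.

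Genes with the pattern most like a member were ranked by the root mean square difference of their centred log2 CPM over the 12 libraries of a line. For CXCL11 in SCaBER they were SAMD9L (0.328), RSAD2 (0.343) and IFIH1 (0.350), against a median of 1.15 over 13128 genes. For CXCL1 they were NUF2 (0.0808), DSN1 (0.154) and ANLN (0.161), against a median of 0.566. For IL1A they were CHAC1 (0.386), CLDN1 (0.449) and OLR1 (0.456), against 0.973. In RT112 they were CRCT1 (0.568), CLIC3 (0.578) and CYP4B1 (0.580) for IL1B, against 1.33 over 13263 genes. These are descriptions over libraries that share treatments.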

How the data were processed

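The 24 libraries, 12 per line, were made by 3′ RNA-seq. Per the labels and the submitters' processing notes, the authors checked reads with the raw-qc pipeline (2.1.0), trimmed them (TrimGalore 0.6.2, keeping bases of quality 20 or more and reads of length 10 or more), aligned them to hg38 with STAR (2.6.1a) and counted them per gene on GENCODE 29. The deposited table of raw counts per gene was tested here, and the deposited TPM values were used for an alternative. TPM divides by gene length, which 3′ reads do not need. Columns of other samples numbered 0.

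Libraries were grouped by the labels. Genes were kept by filterByExpr (minimum count 10, minimum total 15), leaving 13264 in RT112, 13129 in SCaBER and 14823 over both lines, scaled by TMM and tested with edgeR 4.0.16 (R 4.3.3) by the quasi-likelihood test with Benjamini-Hochberg adjustment over all genes tested (threshold 0.05). All groups of a line shared 1 fit, with a biological coefficient of variation of 25.8% in RT112, 21.6% in SCaBER and 24.5% over both. CPM uses TMM-scaled totals. The SE printed with an edgeR value was derived as the absolute log2 change divided by the square root of the test's F value. Statistics were tested on simulated data. Alternatives were DESeq2 1.42.0, its size factors (RLE) in edgeR, no filter, limma 3.58.1 on log2(TPM + 1), which understates changes of low genes, the replicate number as a block, and leaving out each library. Deviations of libraries that share an experiment batch number correlated weakly. The mean r was 0.0336 in RT112 and 0.0259 in SCaBER, with 0 of 15 pairs over 0.1 in each. Counting noise lowers such correlations, so they cannot show that the libraries are unpaired. The main fit leaves the batch out, and with the block more genes were called in each comparison. Replicates differed beyond sampling noise in every group, most in RT112 siZBED2-2.

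The members and lists were chosen with earlier results of these data known. Named genes are the members, FOXA1 and ZBED2, at most 3 called genes per list with the smallest p after the FOXA1 siRNA, and, for the most counted members of a line, the 3 genes of most similar log2 CPM (prior count 2). A gene that this rule names is not reported here. Marker genes with their levels are from the marker lists. The comparison of the ZBED2 siRNAs with each other was added after seeing the data, as was the motif GGAANTTCC after seeing the promoters. Promoter windows are from RefSeq on GRCh38.p14, and all 10 members matched by symbol.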

Additional observations from a re-analysis of the deposited data

Results flagged for a closer look

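In SCaBER the response to the FOXA1 siRNA differed between a background of ZBED2 siRNA and siControl for 4 members, by edgeR's test of the difference itself. It was −2.82 for CXCL10, −1.35 for CXCL11, −1.22 for IL1A and 0.62 for CXCL1, on the log2 scale. CXCL11 and IL1A passed in all 12 fits that left out a library, and the others did not.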

How the results depend on the processing

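Leaving out each library in turn gave 1018 single values, of which 955 kept their direction and side of the threshold, 44 lost a call, 19 gained one and 0 reversed. Of 344 values from the other alternatives 307 kept both, 17 lost a call, 18 gained one and 2 reversed. The 2 reversals were the line difference in the siFOXA1 response of CXCL10 (−1.66) and CXCL11 (−0.48) on log2(TPM + 1). The cause was not tested.

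Counts of members called that moved by over 1.5 times under a setting, or from 0, were as follows. RT112 siFOXA1 had 1, with 2 by DESeq2, 3 on TPM and 0 to 1 leaving out a library. RT112 siZBED2-1 had 1, with 2 on TPM and 1 leaving out a library. In RT112, siFOXA1+siZBED2-1 against siFOXA1 and the FOXA1 siRNA on ZBED2 siRNA each had 1, with 0 on TPM and 0 to 1 leaving out a library. RT112 siZBED2-1 against siZBED2-2 libraries had 1, with 3 by DESeq2, 2 without a filter, 3 on TPM and 0 to 2 leaving out a library. SCaBER siZBED2-2 had 0, with 2 without a filter and 0 to 1 leaving out a library. SCaBER siFOXA1+siZBED2-1 against siFOXA1 had 4, with 1 on TPM and 1 to 4 leaving out a library, and siFOXA1+siZBED2-2 had 2, with 1 by DESeq2, 0 on TPM and 0 to 2. The SCaBER FOXA1 siRNA on ZBED2 siRNA had 4, with 2 to 5 leaving out a library, and its interaction 4, with 0 on TPM and 2 to 4. The siFOXA1 response difference had 0, with 1 by DESeq2, 1 without a filter, 1 on TPM and 0 to 1. The lines differed in 9 to 10 members, SCaBER siFOXA1 in 5, siZBED2-1 in 3 and the ZBED2 siRNAs in 3 to 4. Nothing is read from the count for the lines, since the filter fixed the direction of 5 members.

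With the replicate number as a block, SCaBER siZBED2-2 had 2 members called in place of 0, and CXCL1 passed for the FOXA1 siRNA on ZBED2 siRNA. The block changed no other call of a member. Over all genes the block moved calls from 22 to 44 and from 166 to 336 for RT112 siZBED2-2 alone and on siFOXA1, from 338 to 552 for siZBED2-1 on siFOXA1, from 81 to 212 for the interaction, in SCaBER from 82 to 125 for siZBED2-2 and from 300 to 508 for the interaction, and from 382 to 597 for the line difference.

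Over all genes, limma on TPM gave fewer calls than edgeR in these comparisons: in RT112 345 in place of 1167 for siZBED2-1, 3 in place of 22 for siZBED2-2, 10 of 338 and 3 of 166 for siZBED2-1 and siZBED2-2 on siFOXA1, 4 of 81 for the interaction and 589 of 1406 between the ZBED2 siRNAs. In SCaBER it gave 236 in place of 610, 3 of 82, 104 of 359, 204 of 480, 31 of 300 and 426 of 761 in the same order, and 670 of 1331 for the FOXA1 siRNA on ZBED2 siRNA. The line difference had 251 of 382. On TPM the median log2 change over all genes was −0.261 for RT112 siFOXA1, −0.216 for the RT112 FOXA1 siRNA on ZBED2 siRNA and −0.129 for SCaBER siFOXA1, against −0.01, −0.01 and −0.02 by edgeR. DESeq2 gave 70 for RT112 siZBED2-2, 324 for siZBED2-2 on siFOXA1, 238 and 464 for the interaction in RT112 and SCaBER, and 845 for the line difference. Without a filter the first 3 of these were 58, 324 and 224.

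Leaving out a library gave as few as 1869 genes for RT112 siFOXA1 (3084 with all), 589 for siZBED2-1 and 118 for siZBED2-1 on siFOXA1, and ranges of 14 to 42 for siZBED2-2, 25 to 439 for siZBED2-2 on siFOXA1 and 13 to 330 for the interaction. In SCaBER the lowest counts were 302 for siZBED2-1, 34 for siZBED2-2, 133 and 217 for these on siFOXA1 and 872 for the FOXA1 siRNA on ZBED2 siRNA, and the line difference had 199. Low counts of the members limit what was detectable in RT112.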
